A study of Mus musculus with 18 samples.

Results

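Argonaute 2 (Ago2) peaks that lie in 3′ untranslated regions (3′ UTRs) or other exons but carry none of the miRNA seed matches scored by the authors were examined in mouse colonic epithelium. HEAP is a form of CLIP-seq: Ago2 fused to a Halo tag is crosslinked to RNA with ultraviolet light and pulled down, and the RNA fragments it held are sequenced. A peak was taken as seedless when the 4 seed columns of the deposited peak annotation (8-mer, 7-mer m8, 7-mer A1 and 6-mer) were all empty and its class was utr3, utr3* or exon; the asterisk is not explained in the sources used here. This gave 627 seedless peaks (384 utr3, 13 utr3* and 230 exon) of 5448 annotated and 5554 merged peaks, beside 4158 seed-matched peaks of the same classes. The choice among peaks used their annotation only, but the peaks themselves were called in these pulldowns, so read levels decided which regions could enter.

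G12D samples came from Halo-Ago2/+; Fabp-Cre/+; K-Ras-G12D/+ mice, which express oncogenic K-Ras, and WT samples came from Halo-Ago2/+; Fabp-Cre/+ mice with wild-type K-Ras. Both genotypes therefore carry the Halo-Ago2 allele and the Fabp-Cre transgene, whose fatty acid binding protein promoter is used to drive Cre recombinase in intestinal epithelium. The mice were C57BL/6, aged 8 to 12 weeks, and the distal colon was scraped with a razor blade and crosslinked with 3 exposures of 400 mJ/cm2. Each genotype had 3 pulldown and 3 miRNA libraries. The 6 input libraries were not analysed here, so a change in a peak and a change in the abundance of its transcript cannot be told apart, nor can fewer cells of a type and less RNA per cell. The labels do not say that each library is its own mouse, so p-values measure the spread between these libraries, which may be technical.

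Ago2 is guided to RNA by a miRNA, and its canonical sites pair with the seed, bases 2 to 8 of the miRNA. An 8-mer site has the full seed complement followed by an A, the 7-mers lack one of these features, and the 6-mer lacks both. CLIP of Ago2 also recovers fragments without such a match, which can include sites of partial pairing, sites of miRNAs that were not scored, and abundant RNA.

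The word seedless therefore means without a match to the miRNA families that the annotation names. There were 75 such families, and the miRNAs they name, 137 of the 459 in the deposited miRNA table, held 96.9%, 97.0% and 97.0% of miRNA reads in the G12D libraries and 97.0%, 96.6% and 96.3% in the WT libraries. All of the 20 most abundant miRNAs belonged to a named family. The most abundant ones are shown because a seedless peak lacks a match to each of their seeds, given in capitals (mature sequences from RefSeq, GRCm38.p6, which matched 17 of the 20). The miR-30 pair shares one seed, and the miR-200 and miR-429 group another.
miR-21a-5p: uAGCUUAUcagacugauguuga
miR-194-5p: uGUAACAGcaacuccaugugga
miR-27a-3p: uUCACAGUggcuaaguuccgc
miR-26a-5p: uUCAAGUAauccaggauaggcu
miR-192-5p: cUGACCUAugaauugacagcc
miR-30e-5p: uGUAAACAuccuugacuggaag
miR-30a-5p: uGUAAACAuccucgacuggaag
miR-200c-3p: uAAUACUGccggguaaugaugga
miR-200b-3p: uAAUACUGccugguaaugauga
miR-429-3p: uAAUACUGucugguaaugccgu

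The highest miRNAs outside the named families are shown next, because a peak that matches only their seeds would count as seedless. miR-203-3p averaged 2766 ± 622 normalized reads in G12D libraries and 2483 ± 537 in WT libraries (SD, n = 3 each), against a mean of 30097 over the 6 libraries for miR-21a-5p. miR-101b-3p and miR-101a-3p are near copies whose mature forms start 1 base apart.
miR-203-3p: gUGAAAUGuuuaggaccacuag
miR-101b-3p: gUACAGUAcugugauagcu
miR-101a-3p: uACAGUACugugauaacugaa
miR-140-3p: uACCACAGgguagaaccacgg
miR-142a-3p: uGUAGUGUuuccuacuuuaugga

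Sequence could be read for 2 seedless peaks, those that overlap the transcript start windows of RefSeq (GRCm38.p6). The Guca2a peak, the second highest seedless peak, lies at chr4:119637765-119637826 on the plus strand, and its first 17 bases are bases 34 to 50 of the transcript. The Malat1 peak at chr19:5802592-5802660 on the minus strand covers transcript bases 13 to 50 within the window, of which bases 21 to 50 are shown (chr19:5802623-5802652). The capitals mark CTGAGC, the complement of bases 3 to 8 of miR-24-3p, an offset 6-mer that the authors' 4 classes do not include.
Guca2a: gctctctgtgctgtgcc
Malat1: gcagagcagcgtagagcagcacagCTGAGC

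Searched on the transcript strand only, CTGAGC stood in the same bases of 787 of 32851 start windows (2.40%), and any of the motifs searched for the 17 miRNAs with a sequence stood there in 20.6%. No such motif was found in the Guca2a stretch, where 8.40% of windows held one. All other seedless peaks were not searched for non-canonical matches.

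The seedless peaks lay in 455 gene labels, of which 353 had 1 such peak, 69 had 2 and 33 had 3 or more. Of the 627, 561 were in protein-coding genes, 15 in the nuclear long noncoding RNAs Malat1 (10) and Neat1 (5), and 16 on mitochondrial transcripts. A further 5 carried an snRNA label alone and 3 an rRNA label alone, 11 carried 2 gene labels, 3 were in pseudogenes and 13 had a label not matched in RefSeq. For 327 genes (71.9%) a seed-matched peak in a 3′ UTR or exon was also present, so most of these transcripts were not without canonical sites. All 16 mitochondrial peaks, among them 4 on tRNA genes, were at 0 reads in every library of the deposited count table, as were all 49 merged peaks of that chromosome, so nothing could be compared for them.

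Seedless peaks were narrower. Their median width was 54 bases, against 57 for seed-matched peaks, and the seedless share of all 3′ UTR and exon peaks was 32.0% at widths up to 45 bases, 13.1% at 51 to 55 bases and 8.35% above 65 bases. Peaks were not trimmed to one width, and the part of width in the absence of a match was not tested. Seedless peaks also lay nearer to a seed-matched peak. Measured on the same strand from edge to edge, the median distance to the nearest seed-matched peak was 106 bases for seedless utr3 peaks and 397 bases from one seed-matched utr3 peak to the next. In exons these medians were 2768 and 9857.5 bases. Of the seedless peaks 148 (23.6%) lay within 50 bases of a seed-matched peak, against 12.4% of the seed-matched peaks.

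**Figure D1:**
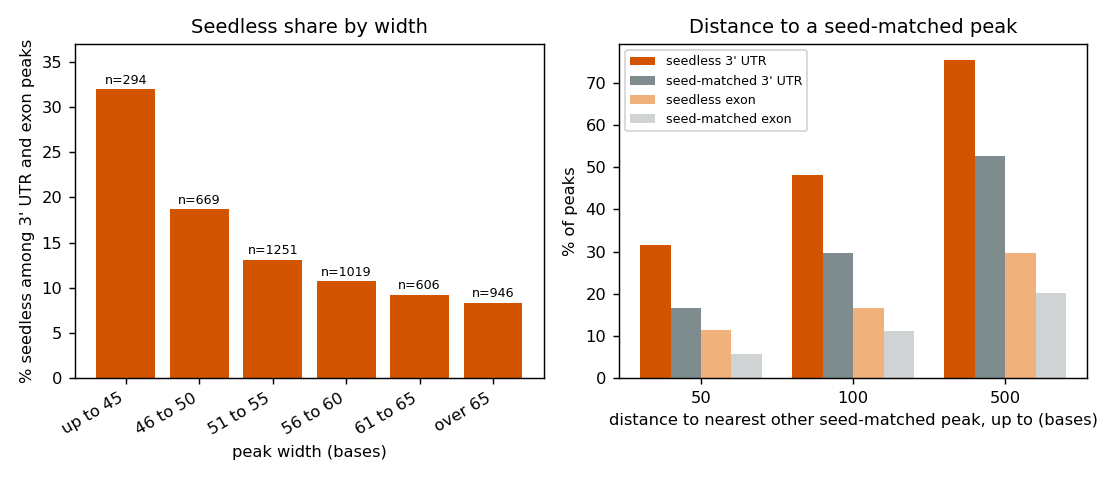
Left, the percentage of 3′ UTR and exon peaks that are seedless (y axis) by peak width in bases (x axis), with the number of peaks in each bin above the bar. It falls with width, with 32.0% in the narrowest bin and 8.35% in the widest. Right, the percentage of peaks within 50, 100 or 500 bases of the nearest other seed-matched peak; 31.5% of seedless and 16.6% of seed-matched utr3 peaks lay within 50 bases.

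Values below are the authors' normalized reads, that is the reads of a peak after division by a factor for each library, and they are per peak, not per length. The libraries held 148927, 723937 and 247358 reads in merged peaks in G12D and 100978, 54401 and 148770 in WT. One read was worth 0.206 to 1.09 normalized reads in G12D and 1.29 to 2.90 in WT, and 106 to 177 of the merged peaks in G12D libraries and 1294 to 1854 in WT libraries had no read. Scaled to a width of 50 bases, the median seedless peak had 8.02 normalized reads over the 6 libraries and the median seed-matched peak 8.68. Reads were present in all 3 G12D libraries for 583 seedless peaks (93.0%) and in all 3 WT libraries for 280 (44.7%), against 97.9% and 58.4% of the seed-matched peaks. The difference between the classes stood out most in utr3, where 36.7% of seedless and 54.7% of seed-matched peaks had a read in every WT library. Markers of smooth muscle and stroma, immune and blood cells, endothelium, neurons and glia had no seedless peak. Of their 50 genes, Igha and Mylk had any peak, which held 0.116 to 0.230% of reads in G12D libraries and 0.0297 to 0.0460% in WT libraries; their part in the results was not tested. Of the epithelial markers Epcam, Cdh1, Krt8, Krt20, Vil1, Muc2 and Lgals4, all but Lgals4 had a seedless peak.

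A larger share of reads in merged peaks fell in seedless peaks in G12D than in WT. The excess lay in 3′ UTR peaks, while the share of exon peaks was not higher in G12D. Of the seedless peaks 79.7% stood in the G12D peak list alone and 11.2% in the WT list alone, against 77.0% and 8.01% of all merged peaks. The lists were called in the same pulldowns, so these shares of reads are not independent of the peak calling, whose part was not tested. Seedless peaks held 7.10% (Wilson 95% interval 6.97 to 7.23), 8.54% (8.47 to 8.60) and 7.79% (7.69 to 7.90) of reads in merged peaks in the G12D libraries, and 5.25% (5.11 to 5.39), 5.51% (5.32 to 5.70) and 6.52% (6.40 to 6.65) in the WT libraries. The lowest G12D library was above the highest WT library; these intervals cover counting error only, and no p is given for a share over the members. For utr3 and utr3* together the share was 4.39 ± 0.40% in G12D and 2.11 ± 0.41% in WT (SD, n = 3 each), without overlap. For exon peaks it was 3.42 ± 0.32% in G12D and 3.65 ± 0.31% in WT, which overlapped. Seed-matched peaks of the same classes held 80.7 ± 1.09% in G12D and 80.2 ± 1.59% in WT.

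**Figure D2:**
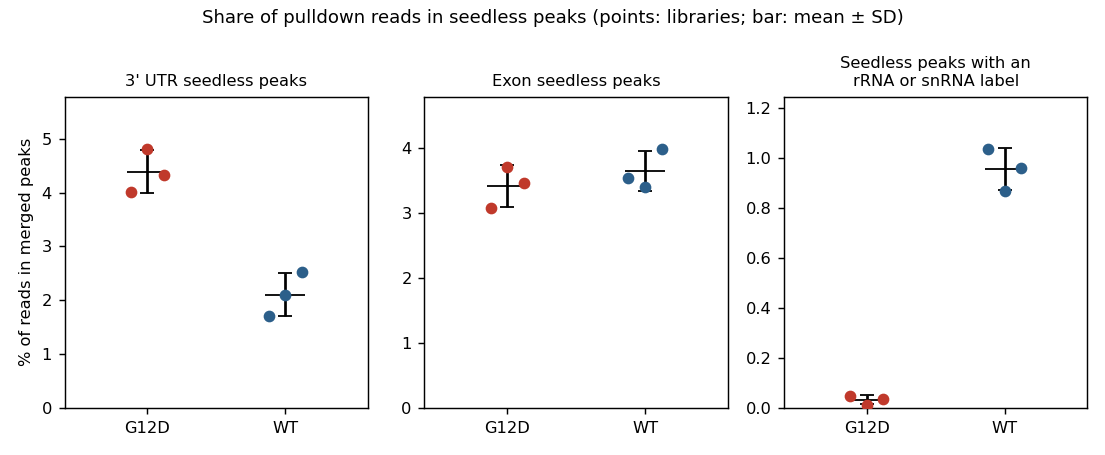
Percentage of reads in merged peaks (y axes, which differ in range) that fell in seedless 3′ UTR peaks, in seedless exon peaks and in seedless peaks with an rRNA or snRNA label, for the 3 G12D and 3 WT libraries (points) with mean and SD. The genotypes are apart for 3′ UTR peaks and for small RNA labels, in opposite directions, and overlap for exon peaks.

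A small group, with 13 of its 14 peaks in exons, went the other way. These 14 seedless peaks carry an snRNA or rRNA label, 13 of them in their gene label and 1, in the 3′ UTR of Sp100, in the exon column alone (n-R5s215); the mitochondrial mt-Rnr2 is among them and had no read. Together they held 0.0324 ± 0.0175% of reads in G12D and 0.955 ± 0.085% in WT. Without them the seedless share was 7.78 ± 0.74% in G12D and 4.81 ± 0.69% in WT. The share of exon peaks was then higher in G12D on average, at 3.39 ± 0.34% in G12D and 2.76 ± 0.28% in WT, and still overlapped, with the lowest G12D library at 3.03% and the highest WT library at 3.08%.

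To compare single peaks, limma was fitted to log2(normalized reads + 1) over the 4438 merged peaks that averaged 5 or more normalized reads across libraries, with Benjamini-Hochberg adjustment and a threshold of 0.05. Of the 627 seedless peaks 452 entered, and 175 did not; 173 of those 175 were in the G12D peak list alone, and 16 had no read in any library. Among the 452, 182 (40.3%) were higher in G12D and 64 (14.2%) lower, together 54.4%. Over all peaks tested, 36.2% were higher and 12.7% lower, together 48.9%, so the share of higher seedless peaks stood a little above the background. The share of lower ones did so with the small RNA labels of the preceding paragraph. Without them 51 of 439 seedless peaks were lower (11.6%) and 182 higher (41.5%), while the shares over all peaks still include such labels. Among 3448 tested seed-matched peaks, 1157 were higher and 377 lower. The median log2 fold change was 1.31 in seedless peaks, 0.99 in seed-matched peaks and 1.05 in all peaks.

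More seedless peaks were higher than lower under every scaling tried, but the size of that imbalance depended on the scaling. With quantile normalization 104 seedless peaks were called higher (23.0%) and 86 lower (19.0%), beside 18.8% and 18.5% of all peaks. With edgeR on the recovered reads 130 were higher (28.8%) and 94 lower (20.8%), beside 24.6% and 20.2% of all peaks. With DESeq2 135 were higher (29.9%) and 83 lower (18.4%), beside 25.5% and 17.4% of all peaks. Without the small RNA labels the lower shares of seedless peaks were 16.6%, 18.5% and 15.9%. The shares of all peaks still include peaks with such labels, so these sets are not alike and are not compared. With these 3 scalings, in the same order and with the labels kept, the median of all peaks was 0.11, 0.47 and 0.66. That of seedless peaks was 0.22, 0.72 and 0.91. In these 3 alternatives too the seedless median was above that of all peaks. The 3 G12D libraries lay wholly above the 3 WT libraries for 222 tested seedless peaks, where 43.9% of all tested peaks did, and wholly below for 78, where 15.2% did.

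Seedless peaks of the 3′ UTR and of exons differed in their balance of directions. In utr3, 122 of 269 tested seedless peaks were higher and 15 lower, with a median log2 fold change of 1.62; of 2124 seed-matched utr3 peaks 780 were higher and 148 lower, with a median of 1.18. In exons, 59 of 177 seedless peaks were higher and 46 lower, with a median of 0.63, and 353 and 221 of 1261 seed-matched peaks, with a median of 0.61. Of 6 tested utr3* peaks 1 was higher and 3 were lower. Without the rRNA and snRNA labels the seedless exon peaks gave 59 higher and 34 lower, with a median of 0.86.

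When utr3 peaks were ordered by their strongest seed match, the seedless ones stood at the end of a graded series. The median log2 fold change was 0.85 for 8-mers, 1.24 for 7-mer m8, 1.49 for 7-mer A1, 1.52 for 6-mers and 1.62 for no match. Over all peaks of the same classes, tested or not, the median level was 10.7, 8.96, 8.53, 7.71 and 6.65 normalized reads. The share of these that stood in both genotypes' peak lists was 21.4%, 14.4%, 13.7%, 9.98% and 7.55%. Among tested peaks alone, which give the fold changes, the median level was 12.6, 10.9, 10.7, 10.2 and 10.5. List membership and the level of all peaks thus moved with the fold change. The level of tested peaks did so only as far as the 6-mers. The part of level and list membership in the fold change was not tested. Exon peaks showed no such order, with medians of 0.50, 0.79, 0.57, 0.30 and 0.63.

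**Figure D3:**
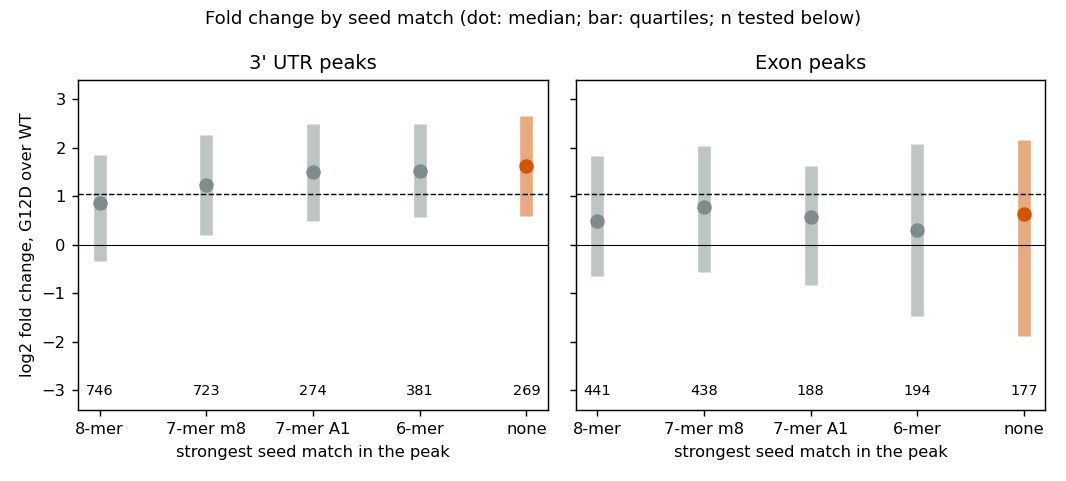
Log2 fold change, G12D over WT (y axis), by the strongest seed match in the peak (x axis), for 3′ UTR peaks (left) and exon peaks (right). Dots are medians, bars run between the quartiles, numbers are tested peaks, and the dashed line is the median of all tested peaks, 1.05. In 3′ UTRs the medians climb from the 8-mer class at 0.85 to peaks without a match at 1.62.

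The peak lists were called in the same pulldowns and so are not independent of these fold changes. Of the seedless peaks 57 stood in both lists, 500 in the G12D list alone and 70 in the WT list alone. Among the 56 tested seedless peaks of both lists 10 were higher (17.9%) and 13 lower (23.2%), with a median log2 fold change of 0.00. Of all 828 tested peaks of both lists 115 were higher (13.9%) and 212 lower (25.6%), with a median of -0.45. The authors' score for each peak, which has no stated unit, had a median of 3.00 for seedless and 3.68 for seed-matched peaks within the G12D list, and of 4.31 and 5.70 within the WT list. Nearness to a seed-matched peak went with direction, but class and small RNA labels moved with it: within 50 bases 49 of 102 tested seedless peaks were higher and 6 lower (median 1.69), and beyond 500 bases 66 of 200 were higher and 50 lower (median 0.72). Within utr3 and without those labels, 41 of 83 were higher and 2 lower within 50 bases (median 1.75), and 27 of 62 were higher and 8 lower beyond 500 bases (median 1.37). In exons 8 of 17 were higher and 2 lower within 50 bases (median 1.92), and 38 of 121 were higher and 28 lower beyond 500 bases (median 0.67). No test of these differences was run.

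Of the 8 highest seedless peaks, those of Krt8, Guca2a and Krt19 belonged to the list of absorptive colonocyte genes; the other peaks of the 8 lay in Emp1, Trim25, Actb, RP23-230O9.4 and Gm25555 Zfp811, described further on. The highest lay in an exon of Krt8 (chr15:101998469-101998522), a keratin of simple epithelia, with 182, 257 and 180 normalized reads in G12D libraries and 365, 371 and 763 in WT libraries. Every G12D library was below every WT library, and limma gave -1.20 ± 0.38 on the log2 scale (fold change with its SE, adjusted p = 0.0222). That call was lost without WT replicate 3 (-0.85, adjusted p = 0.0668), without G12D replicate 1 or 3 (adjusted p = 0.0897 and 0.0945), without the variance trend (adjusted p = 0.0767), on thinning to the shallowest library (adjusted p = 0.0509) and under quantile normalization (-0.58, adjusted p = 0.138). An exon peak of Krt19 (chr11:100145676-100145732), a keratin that pairs with Krt8, had 31.6, 20.01 and 58.2 normalized reads in G12D and 372, 275 and 384 in WT. The groups were far apart, and the peak fell by 3.31 ± 0.40 on the log2 scale (limma, adjusted p = 0.000230).

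Guca2a, which encodes the secreted peptide guanylin, moved the opposite way. Its exon peak had 416, 464 and 694 normalized reads in G12D and 123, 78.3 and 83.8 in WT, without overlap. It rose by 2.44 ± 0.35 on the log2 scale (limma, adjusted p = 0.000359). Across 45 listed genes of absorptive colonocytes, 20 had seedless peaks. Over all tested peaks, the background for this and each following list, 36.2% were higher and 12.7% lower. Of 33 tested seedless peaks of the list, 20 were higher and 3 lower, with a median of 2.25, while 44 of 112 seed-matched peaks of the list were higher and 13 lower, with a median of 1.07. Those higher included peaks of Cldn7 and Cldn4 (tight junction claudins), Car1 (a carbonic anhydrase), Cdh17 (an intestinal cadherin) and Myo1a (a brush border myosin). The 3 lower ones were those of Krt8, Krt19 and an exon of the adhesion protein Ceacam1; Krt19 and Ceacam1 also had higher ones.

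The Cldn7 utr3 peak (chr11:69967788-69967842) had the highest log2 fold change among called peaks whose groups did not overlap. That order depends on the pseudocount and the tool, since WT values were at or near 0 for several: Klk1 led with edgeR (8.00) and Rpl14 with a pseudocount of 5 (3.81). It had 30.5, 54.1 and 49.6 normalized reads in G12D and 2.12, 0 and 0 in WT, where the single value above 0 was 1 read. It rose by 4.93 ± 0.67 on the log2 scale (limma, adjusted p = 0.000293), and the ratio of pooled reads was 79.9 with a wide 95% counting interval of 14.2 to 3163. The next were Atp10b, a phospholipid flippase, at 4.79, the ribosomal protein gene Rpl14 at 4.71, the ubiquitin ligase Rnf167 at 4.68, the tissue kallikrein Klk1 at 4.53, and Ppp1r15b, a regulatory subunit of a phosphatase that acts on a translation initiation factor, at 4.45. Their adjusted p-values in limma lay between 0.000258 and 0.000661. Cldn7 and these next peaks all stood in the G12D peak list alone. They were called, and passed the minimum mean, through the genotype in which they are high. These fold changes and p-values are therefore not independent of that selection. Another seedless peak of Ppp1r15b was called lower, at -2.94. Klk1 had 173 reads over the G12D libraries and none over the WT libraries, which is at least 12.8-fold higher with a floor of 3 counts over the WT group. Rpl14 was the most abundant of these, with 113, 144 and 132 normalized reads in G12D and 12.7, 2.90 and 1.29 in WT.

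**Figure D4:**
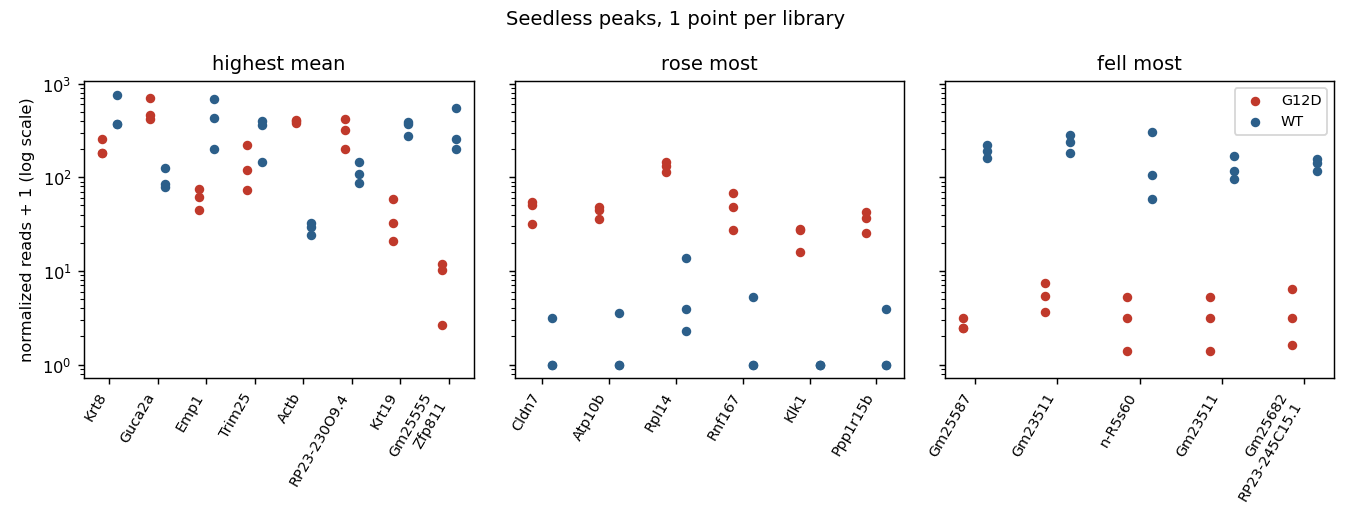
Normalized reads + 1 (y axis, log scale) of seedless peaks in each G12D and WT library (1 point per library), for the 8 peaks with the highest mean, the 6 that rose most and those that fell most outside the first panel. Among the highest peaks both directions occur, and those shown as falling most carry snRNA or n-R5s labels.

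The list of goblet and enteroendocrine genes holds the mucins Muc2, Muc3 and Muc13. The utr3 peak of Muc2, the gel-forming mucin, had 176, 250 and 175 normalized reads in G12D and 46.7, 34.8 and 37.4 in WT, and rose by 2.30 ± 0.33 on the log2 scale (limma, adjusted p = 0.000376). The utr3 peak of the transmembrane mucin Muc13 (chr16:33819401-33819495) had 36.0, 52.8 and 60.3 in G12D and 108, 177 and 522 in WT, and fell by 2.13 ± 0.51 (limma, adjusted p = 0.00538). Both sets of libraries were apart, though the WT values of Muc13 were widely spread, and another Muc13 peak was higher. Of 10 tested seedless peaks of the goblet and enteroendocrine list 5 were higher and 1 lower, against 20 and 0 of 33 seed-matched ones. The shares over all tested peaks were 36.2% and 12.7%.

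Cytoskeleton and junction genes held 16 tested seedless peaks, 10 higher and 1 lower (median 2.01), against 25 and 11 of 80 seed-matched peaks of the list (median 0.80) and the shares of 36.2% and 12.7% over all peaks. Actb, cytoplasmic actin, had 4 of them, and they differed within the one transcript. The exon peak at chr5:142904463-142904505 had 402, 383 and 411 normalized reads in G12D and 31.8, 23.2 and 28.4 in WT, and rose by 3.81 ± 0.31 on the log2 scale (limma, adjusted p = 3.81e-05). The utr3 peak at chr5:142903355-142903413 had 112, 128 and 279 in G12D and 138, 110 and 108 in WT, which overlapped, and its log2 fold change of 0.43 ± 0.39 did not pass (limma, adjusted p = 0.372). Its interval also overlaps that of the RefSeq lncRNA Gm38733, whose strand was not compared. The log2 fold change of this utr3 peak was -0.04 with edgeR. The other 2 exon peaks were higher by 1.15 and 1.81. The 1 lower peak of the list lay in an exon of Ezr, which links actin to the membrane of microvilli, at -1.69.

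In the list of RAS, MAPK and PI3K genes 3 seedless peaks could be tested, and 2 were higher, where 36.2% of all tested peaks were. The utr3 peak of Jun, a subunit of the AP-1 transcription factor, had 69.8, 59.4 and 77.6 normalized reads in G12D and 19.1, 0 and 14.2 in WT, and rose by 3.37 ± 0.90 on the log2 scale (limma, adjusted p = 0.00965). That call was lost without any 1 of the G12D libraries (adjusted p = 0.0551 to 0.0685). The utr3 peak of Fos, the partner of Jun in AP-1, had 53.4, 30.3 and 49.6 in G12D and 12.7, 8.69 and 3.87 in WT, and rose by 2.35 ± 0.51 on the log2 scale (limma, adjusted p = 0.00323). In the WNT and stem cell list the tested peak was an exon peak of Prom1, a glycoprotein of membrane protrusions, which was higher by 1.90 ± 0.41 (limma, adjusted p = 0.00322; adjusted p = 0.0513 without both libraries numbered 2).

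Among housekeeping lists, the 1 tested translation peak, in an exon of the elongation factor Eef1a1, was higher by 3.90. Of 5 tested peaks of protein folding genes 4 were higher, against 8 of 16 seed-matched ones; among them were exon peaks of the chaperone Hspa8 that carry a second label, Snord14c or Snord14d, snoRNAs encoded within that gene; at 3.04 and 2.91 they cannot be assigned to either RNA. Of 3 mitochondrial energy peaks none was higher. That of Ogdh, a dehydrogenase of the citric acid cycle, fell by 2.27 (limma, adjusted p = 0.0208), which was lost without G12D replicate 2 or 3 or WT replicate 1, without both libraries numbered 2 and after thinning (adjusted p = 0.0532 to 0.109). That of Atp5a1, an ATP synthase subunit, stood at -0.12 (limma, adjusted p = 0.884) and was positive without G12D replicate 3, without WT replicate 3 and at equal library totals. Of 17 peaks of RNA binding, splicing and silencing genes, 14 of them in Malat1 and Neat1, 8 were higher and 3 lower, with a median of 1.31, against 29 and 8 of 63 seed-matched peaks of the list, with a median of 1.66. For these lists too, 36.2% of all tested peaks were higher and 12.7% lower.

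Small nuclear and ribosomal RNA labels stood on 5 of the 6 seedless peaks that fell most. All 13 tested seedless peaks with such a label, the Sp100 peak included, were lower, with a median log2 fold change of -4.98, and so were all 24 tested seed-matched peaks with one. The Gm25587 peak (chr10:105040377-105040424), an snRNA gene, had 2.18, 1.44 and 1.44 normalized reads in G12D and 159, 191 and 218 in WT, and fell by 6.15 ± 0.41 on the log2 scale (limma, adjusted p = 2.09e-05). Next came Gm25555 Zfp811 at -5.47, which is not among the 13, since Gm25555 was not matched in RefSeq and Zfp811 is another gene. Then came 2 peaks of the snRNA gene Gm23511 at -5.44 and -5.42, n-R5s60, a 5S rRNA label that RefSeq lists as a pseudogene, at -5.43, and Gm25682 RP23-245C15.1 at -5.42. Such genes have many near-identical copies, and how the authors' counting treated reads that fit several copies is not given in the sources used here, so the locus of these reads is uncertain. The share of these reads per library moved with the genotype, and what sets it was not tested. The 6 peaks that fell most all stood in the WT peak list alone, so their fall is not independent of the peak calling.

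Genes with several seedless peaks showed how far neighbouring peaks of one transcript can differ. Of 26 genes with at least 2 called seedless peaks, 8 had both a higher and a lower one. Malat1, a nuclear RNA of speckles, had 10: 5 were higher, 4 did not pass and 1 was lower. The lower one, at chr19:5796000-5796046, had 1.09, 12.6 and 7.90 normalized reads in G12D and 72.2, 43.5 and 82.5 in WT, and fell by 3.36 ± 0.65 (limma, adjusted p = 0.00177). The higher ones ranged in log2 fold change between 1.09 and 2.87, and the 2 with the highest means, at 1.09 and 1.31, were not called by edgeR, DESeq2 or after quantile normalization. The one at 1.09 was also lost after thinning, without the variance trend, with the replicate block, without both libraries numbered 2 and without any 1 library other than G12D replicate 3 (adjusted p in limma 0.0520 to 0.150). The one at 1.31 was also lost after thinning, without G12D replicate 2 or 3 and without both libraries numbered 2 (adjusted p in limma 0.0619 to 0.137). The peak at the start of the transcript, whose sequence is given above, had 20.7, 16.1 and 32.3 in G12D and 34.0, 20.3 and 27.1 in WT and overlapped between genotypes. In Neat1, the scaffold of paraspeckles, 2 of 4 tested peaks were higher and 1 was lower, at -3.23.

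Tgoln1, a membrane protein of the trans-Golgi network, also had 10 seedless peaks, all in its 3′ UTR, of which 6 were higher and 4 did not pass. Mxd1, a transcriptional repressor that binds MAX, had 7 in its 3′ UTR, 5 of them higher, with log2 fold changes between 1.69 and 4.12. Sdc4, a heparan sulfate proteoglycan, had 6: 4 were higher, 1 did not pass, and the highest fell by 1.84 ± 0.63 (limma, adjusted p = 0.0305), with 14.2, 10.1 and 12.2 normalized reads in G12D and 31.8, 20.3 and 144 in WT. That call was lost without WT replicate 3 (-1.02, adjusted p = 0.108), without any 1 of the G12D libraries, without the variance trend and after thinning. The gene labelled RP23-230O9.4, whose peaks lie within the interval of Ly6m in RefSeq (chr15:74878336-74881704), had 7, of which 6 were higher. Its highest, at chr15:74879455-74879516, had 200.7, 317 and 419 in G12D and 108, 145 and 86.4 in WT, and rose by 1.42 ± 0.37 on the log2 scale (limma, adjusted p = 0.00851; adjusted p = 0.0682 with edgeR and 0.0501 without G12D replicate 3). A neighbour at chr15:74879269-74879308 had 196, 237 and 192 in G12D and 19.1, 14.5 and 2.58 in WT, a log2 fold change of 4.33. An exon peak of Trim25, a ubiquitin ligase of antiviral signalling, was among the 8 highest but overlapped between genotypes, with 118, 72.4 and 222 in G12D and 144, 394 and 357 in WT (-1.13 on the log2 scale, limma, adjusted p = 0.0699). It passed as lower with edgeR (-1.73, adjusted p = 0.00116), DESeq2 (-1.51, adjusted p = 0.0168), a pseudocount of 5 (adjusted p = 0.0498), the replicate block (adjusted p = 0.0221), and without G12D replicate 3 (adjusted p = 0.0491) or WT replicate 1 (adjusted p = 0.0236), and its fold change ranged between -1.73 and -0.49.

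The seedless peaks were also set against the seed-matched peaks of the same gene. For each of 227 genes with tested peaks of both kinds, the mean log2 value of the seed-matched peaks was subtracted from that of the seedless peaks in every library, and this balance was compared between genotypes with limma. This test was chosen after the data were seen. In 55 genes (24.2%) the balance differed, and it shifted to the seedless side in G12D in 23 and to the seed-matched side in 32. The same contrast between peaks of one kind was not run, so the part of the seed match in this share was not tested. In all 55 the libraries of the genotypes did not overlap, as in 94 of the 227 (41.4%), and in 38 of the 55 (69.1%) the 2 kinds of peak had mean log2 fold changes of opposite sign, as in 60 of the 227 (26.4%). Those signs hold on the authors' scaling, where the median of all peaks was 1.05. The direction of a peak also went with its peak list, called in the same pulldowns. In the G12D list alone 172 of 327 tested seedless peaks were higher and 0 lower, and 1057 and 20 of 2478 seed-matched ones. In the WT list alone 0 of 69 seedless peaks were higher and 51 lower, and 3 and 170 of 246 seed-matched ones. The part of list membership in the balance was not tested. The median difference over the 227 genes was 0.09. With quantile normalization 53 genes were called, 21 to the seedless side and 32 to the other. Without any 1 of the G12D libraries 33 to 35 genes were called, and 34 after thinning to the shallowest library.

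Emp1, a membrane protein of epithelia, had 3 seedless and 11 seed-matched peaks in its 3′ UTR. Its highest seedless peak (chr6:135381239-135381284) had 43.6, 60.04 and 74.0 normalized reads in G12D and 425, 197 and 690 in WT, and fell by 2.72 ± 0.45 on the log2 scale (limma, adjusted p = 0.000696). The seed-matched peak that starts 33 bases downstream (chr6:135381317-135381358) had 58.9, 42.9 and 38.8 in G12D and 8.49, 2.90 and 2.58 in WT, and rose by 3.21. All 11 seed-matched peaks were called higher, by 2.26 to 4.67, and the third seedless peak, near the end of the 3′ UTR, was higher by 3.91. The remaining seedless peak, just upstream of the one that fell, had 92.7, 73.0 and 106 in G12D and 82.8, 58.0 and 72.2 in WT, which overlapped (0.34 on the log2 scale, limma, adjusted p = 0.402). The mean log2 fold change was therefore 0.51 over the 3 seedless peaks and 3.32 over the seed-matched ones. The within-gene difference was -2.80 ± 0.53 (limma, adjusted p = 0.00459), and -4.55 with a minimum mean of 20.

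Calr, a chaperone of the endoplasmic reticulum, showed the reverse. Its seedless utr3 peak (chr8:84842307-84842401) had 22.9, 11.1 and 11.5 normalized reads in G12D and 2.12, 0 and 3.87 in WT, while the seed-matched peak beside it (chr8:84842219-84842281) had 2.18, 3.92 and 4.31 in G12D and 63.7, 40.6 and 69.6 in WT. The groups were apart in both, in opposite directions, and the within-gene difference was 6.35 ± 0.67 (limma, adjusted p = 0.000558). The seedless peak of Calr stood in the G12D peak list alone and its seed-matched peak in the WT list alone. In Srrm2, a splicing factor of nuclear speckles, the seedless exon peak had 239, 157 and 343 in G12D and 59.4, 66.7 and 64.4 in WT, and the seed-matched one 16.4, 2.27 and 22.3 in G12D and 44.6, 29.0 and 58.0 in WT, a within-gene difference of 3.85 ± 0.65 (limma, adjusted p = 0.00293). In Son, another splicing factor of speckles, the seedless exon peak was lower by 1.89 and the seed-matched peak, without a read in WT, was higher, a difference of -6.52 ± 0.71 (limma, adjusted p = 0.000558). With no read in WT its size depends on the pseudocount, at -7.54 with 0.5 and -4.11 with 5. The seed-matched peak of Son passed the minimum mean through its G12D reads alone, so this difference and its p-value are not independent of that filter. Jun had a difference of 2.93, which was 5.76 with a minimum mean of 20 and 2.06 without a filter. Krt8 had one of -2.16; the call for Krt8 was lost without any 1 of the G12D libraries, without WT replicate 3 (adjusted p = 0.0673 to 0.109), after thinning and under quantile normalization. The 30 seed-matched and 10 seedless peaks of Malat1 gave -0.42, which did not pass (limma, adjusted p = 0.584), and those of Muc2 gave -0.61 (limma, adjusted p = 0.431). These genes were chosen after their values were seen.

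**Figure D5:**
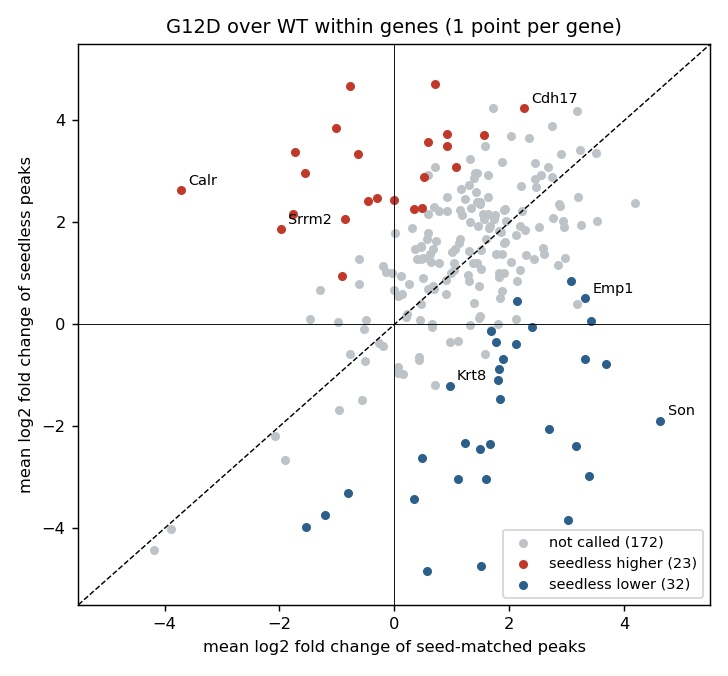
Mean log2 fold change, G12D over WT, of the seedless peaks (y axis) against that of the seed-matched peaks (x axis), 1 point for each of 227 genes. Points above the dashed line of equality have the seedless side higher; 23 genes were called on that side and 32 on the other, and Calr and Srrm2 stand opposite to Emp1, Krt8 and Son.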

How the data were processed

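Normalized signal per merged peak and per miRNA was deposited by the authors as reads divided by 1 factor per library. Recovered as whole reads, 100.0% of values came out whole within 0.01 of a read. Per the submitters' processing notes the tools included STAR 2.5.2b and DESeq2; which peak caller and counting rules were used is not stated. Log2 fold changes, p-values and adjusted p-values were deposited by the authors per peak, per the file headers, as was a score per peak and, per the file headers, the annotation class, gene label and seed matches. In the authors' deposited table, 253 of 611 seedless peaks with an adjusted p were higher and 74 lower (all peaks 37.9% and 11.6%), and 233 of the 246 limma calls were shared there in the same direction.

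Peak columns name a genotype and a replicate number, and were read as the pulldown libraries that bear them. Coordinates are GRCm38, counted from 1. limma 3.58.1 was run in R 4.3.3 with a variance trend, without one for the within-gene balance. edgeR 4.0.16 and DESeq2 1.42.0 on the recovered reads were alternatives. The limma fit was also run on simulated counts in which few peaks changed, equally often in each direction. These data have many called peaks and a shift to higher values in G12D, so that run does not check the calls made here. Same-numbered libraries did not deviate together (correlations 0.04, -0.04 and -0.01), so the numbers were not taken as pairs.

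The members and gene lists were chosen with earlier results of these data known. Named peaks were the 8 with the highest mean, the 6 called and not overlapping peaks with the largest fold change in each direction, up to 2 with the highest mean in each list, and those of the 5 genes with most seedless peaks. Other peaks and genes named were chosen after their values were seen.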

Additional observations from a re-analysis of the deposited data

How the results depend on the processing

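The number of seedless peaks called was 246 and stayed within 1.5 times of that in 18 of 21 alternatives; with a minimum mean of 20 normalized reads 85 were called, without a filter 379 and among peaks of both lists 23, where fewer or more peaks were tested. Leaving out each library gave 168 to 261 (197 without both libraries numbered 2) and 1410 to 2275 of all peaks (1665 without both), where a mean of at least 20 left 790. The replicate block gave 249 seedless peaks, 2220 peaks in all and 52 genes with a shifted balance; the numbers do not pair the libraries (correlations 0.04, -0.04 and -0.01). The median log2 fold change of seedless peaks was 0.91 with DESeq2, 0.72 with edgeR, 0.22 with quantile normalization, 1.496 at equal library totals, 1.53 and 0.79 with pseudocounts of 0.5 and 5, 0.41 with a mean of at least 20, 1.76 without a filter, 1.18 after thinning, 0.0043 in both lists, and 1.22 to 1.38 without 1 library or both numbered 2. The mean share of reads was 8.82% in G12D and 6.69% in WT with 3′ UTR and exon peaks as denominator, 9.14% and 7.61% without the highest peak, and 4.81% in WT without rRNA and snRNA labels. The within-gene balance was called in 28 of 53 genes with a mean of at least 20, in 34 after thinning and in 33 to 65 without 1 library. Of 572 settings of the 32 named peaks 545 kept direction and side of the threshold. The sign turned for Actb utr3 under edgeR (-0.038) and for Atp5a1 at equal totals (0.058), without G12D replicate 3 (0.30) and without WT replicate 3 (0.32), in a range of -0.62 to 0.32 without 1 library. Except where the number tested changed, the cause was not tested. Thinning, leaving out both libraries numbered 2, leaving out the small RNA labels and all settings of the balance were added after the data were seen. The share of peaks with a non-canonical match and its alternatives were not run, since no genome was used here. At the WT depth, a peak of a few normalized reads rests on 1 to 3 reads.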
